A study of Homo sapiens with 2 samples.

Results

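SUSD2, TESC, NREP and ZBED2 were 4 genes with much lower signal in HCC15 cells after CTNNB1 knockdown that do not belong to the usual list of Wnt pathway components. They were 4 of 19775 genes that had a probe set under a single symbol on the array. A probe set is the group of short oligonucleotides that reads 1 transcript region, and the genes took in every probe set whose platform symbol was exactly 1 of the 4 names, 9 in all. HCC15 is an established human lung cancer cell line, labelled squamous, and the series title places it among CTNNB1-mutated non-small-cell lung cancers. One culture was transfected with CTNNB1 siRNA, which targets the mRNA of beta-catenin, and the other with a control siRNA. The control sample is titled HCC15-Tax, and the labels do not explain the word Tax. Both were grown with 5% serum, collected at 48 h and hybridised to 1 array each. The 4 genes were chosen by their low ratios of CTNNB1 siRNA over control siRNA signal on these same arrays, so their values are a description. Each group had 1 array and so no replicate, test or p-value, and every difference holds any difference between the 2 cultures and hybridisations.

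Beta-catenin, when it is not degraded, binds TCF/LEF factors in the nucleus and raises transcription of genes near their binding sites. Many of the best known targets are themselves part of Wnt signalling, such as AXIN2 and NKD1, but the set of genes that follow beta-catenin differs between tissues. The 4 genes described here belong to no common family. SUSD2 encodes a membrane protein with a sushi domain on the cell surface and is used as a surface marker of endometrial mesenchymal stem cells. TESC (tescalcin, also called CHP3) encodes a calcium-binding EF-hand protein that binds the sodium/proton exchanger NHE1. NREP (P311) encodes a small intracellular protein first described in neurons and later linked to TGF-beta and wound repair. ZBED2 encodes a BED-type zinc finger protein, a transcriptional repressor reported to oppose IRF1 at interferon response genes in pancreatic cancer cells.

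RefSeq (GRCh38.p14) supplied promoter windows for 2 of the 4 genes, 1 for ZBED2 and 6 alternative starts for NREP. The 250 bases before a start are shown, 5′ to 3′, for ZBED2 and for the 2 NREP starts that held a searched motif, to let the regulatory sequence of lowered genes be read directly. Capitals mark a match to TATAAA or GGGCGG.
ZBED2, chr3:111595347-111595596, minus strand: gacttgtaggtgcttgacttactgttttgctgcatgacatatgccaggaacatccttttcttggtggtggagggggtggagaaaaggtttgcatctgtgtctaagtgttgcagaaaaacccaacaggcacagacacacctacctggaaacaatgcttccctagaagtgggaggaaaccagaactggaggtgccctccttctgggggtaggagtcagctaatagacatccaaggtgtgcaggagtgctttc
NREP, chr5:111757730-111757979, minus strand: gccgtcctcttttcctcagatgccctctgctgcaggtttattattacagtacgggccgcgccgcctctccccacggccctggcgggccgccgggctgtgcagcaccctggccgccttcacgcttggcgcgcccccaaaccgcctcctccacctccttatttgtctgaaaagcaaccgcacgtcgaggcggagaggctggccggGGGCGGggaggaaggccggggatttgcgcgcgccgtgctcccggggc
NREP, chr5:111756252-111756501, minus strand: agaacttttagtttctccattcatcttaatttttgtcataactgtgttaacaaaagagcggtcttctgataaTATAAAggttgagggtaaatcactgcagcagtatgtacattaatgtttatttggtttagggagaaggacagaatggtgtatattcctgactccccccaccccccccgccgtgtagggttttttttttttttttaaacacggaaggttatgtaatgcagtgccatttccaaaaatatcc

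The LEF/TCF motif was searched on both strands as CTTTGAA and CTTTGAT, which cannot both match at the same position. Neither form was found in any of the 7 windows of ZBED2 and NREP. CTTTGAA occurred in 3.8% and CTTTGAT in 2.26% of all 35116 RefSeq windows of the same length, and either form in 5.94%. TATAAA was present in 1 of the 7 windows, against 10.7% of all windows, and GGGCGG in 1 of the 7, against 42.6%. The NREP windows overlap in part, and 2 of them are shifted by only 2 bases, so the 7 are not separate sequences. G and C made up 49.6% of the ZBED2 window and 69.2% and 37.6% of the NREP windows printed with GGGCGG and TATAAA. The arrays do not say which NREP start HCC15 cells use, and these windows cover only the bases just before each start.

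Signals are linear MAS5 intensities as deposited, where MAS5 combines matching and mismatching oligonucleotides into 1 value per probe set. Signals ran from 0 to 14374 on the CTNNB1 siRNA array and from 0.1 to 12951 on the control siRNA array, with medians of 46.7 and 51.3. A floor was set at 13.8, the lower quartile of both arrays together, and a probe set was taken as entering when its mean signal reached 49.1, the median of all values. Each gene was read from whichever entering probe set had the highest mean. The targeted transcript was lower on its brightest probe set (201533_at), at 339 with CTNNB1 siRNA against 1224 with control siRNA, but the 3 CTNNB1 probe sets disagreed in size. The log2 ratio was -1.85 for 201533_at, -0.97 for 1554411_at (45.8 with CTNNB1 siRNA, 89.8 with control siRNA) and -0.13 for 223679_at (118 with CTNNB1 siRNA, 130 with control siRNA), the last within the probe set SD given below. Of 6 squamous markers with a probe set only SOX2 entered (41.6 with CTNNB1 siRNA, 60.1 with control siRNA), whereas all 5 epithelial markers entered, from 594 for CDH1 to 12013 for KRT18 with CTNNB1 siRNA and from 533 for KRT19 to 11116 for KRT18 with control siRNA. Of the lung adenocarcinoma and alveolar markers with a probe set 3 of 4 entered, at 65.6 to 190.6 with CTNNB1 siRNA and 56.2 to 164.9 with control siRNA, and 0 of 3 neuroendocrine markers did. Of the markers of other cell types, 3 of 6 fibroblast, 2 of 4 leukocyte and 1 of 3 endothelial genes entered, with signals of 46.8 to 86.6 with CTNNB1 siRNA and 58.1 to 162.5 with control siRNA.

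SUSD2, the membrane protein gene, had the lowest log2 ratio of the 4 when each gene was read from its brightest probe set. Its bright probe set (227480_at) read 185 with CTNNB1 siRNA against 835 with control siRNA, which is 22.1% of the control, a log2 ratio of -2.18 and a 4.52-fold lower signal. Its second probe set (234310_s_at) was much dimmer and read 38 with CTNNB1 siRNA against 97.7 with control siRNA, a log2 ratio of -1.36. Both SUSD2 probe sets were therefore lower on the CTNNB1 siRNA array, and they differed from each other by 0.81 in log2 ratio. As a measure of disagreement between probe sets, entering probe sets within a gene had a pooled SD of 0.42 in log2 ratio over 5791 genes. It was 0.57 among probe sets with a mean signal of 50 to 100, where the dim SUSD2 probe set lies, and 0.29 at or above the 75th percentile of 209. This SD describes single ratios read on the same 2 arrays. It holds no variation between cultures or hybridisations and is not the SD of a difference between 2 genes.

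TESC, the calcium-binding protein gene, was close behind. Its bright probe set (218872_at) read 177 with CTNNB1 siRNA against 778 with control siRNA, 22.8% of the control, a log2 ratio of -2.14 and a 4.4-fold lower signal. The log2 ratios of SUSD2 and TESC differed by 0.04, less than the probe set SD of 0.29, so their order is not settled. The other TESC probe set (240553_at) read 5.3 with CTNNB1 siRNA and 2.7 with control siRNA, both under the floor, and it carries no ratio. TESC therefore rests on a single probe set.

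NREP had the most probe sets and the widest spread among them. The brightest (201310_s_at) read 324 with CTNNB1 siRNA against 1030 with control siRNA, 31.4% of the control, a log2 ratio of -1.67 and a 3.18-fold lower signal. The dimmer 201309_x_at read 19.7 with CTNNB1 siRNA against 148 with control siRNA, 13.3% of the control, with a log2 ratio of -2.91. The 2 entering NREP probe sets thus pointed the same way but lay 1.24 apart, and the size of the NREP difference, 3.18-fold or 7.52-fold, depends on which is read. The 7.52-fold rests on a reading of 19.7 with CTNNB1 siRNA, close to the floor of 13.8, and is the less certain.

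Below the signal filter, the NREP probe set 230424_at read 19.6 with CTNNB1 siRNA and 38.5 with control siRNA, a log2 ratio of -0.97 just short of 2-fold. The fourth, 238411_x_at, read 1.3 with CTNNB1 siRNA and 1.4 with control siRNA, under the floor on both arrays. Probe set names ending in _s_at or _x_at, as both entering NREP probe sets and the dim SUSD2 probe set have, mark oligonucleotides that can also match other transcripts of the gene or related sequences.

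ZBED2, the zinc finger repressor gene, had 1 probe set (219836_at). It read 237 with CTNNB1 siRNA against 755 with control siRNA, 31.5% of the control, a log2 ratio of -1.67 and a 3.18-fold lower signal. ZBED2 and NREP were level, with log2 ratios 0.0011 apart. On the brightest probe sets SUSD2 and TESC lay 0.47 to 0.51 below NREP and ZBED2. The probe set SD of 0.29 describes single ratios, so it does not settle whether these genes differ. The order against NREP turned with the probe set: with the median over entering probe sets NREP was at -2.29, TESC at -2.14 and SUSD2 at -1.77, and with the dimmest entering probe set NREP was at -2.91 and SUSD2 at -1.36. Both of these NREP values draw on 201309_x_at, which read close to the floor with CTNNB1 siRNA.

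**Figure D1:**
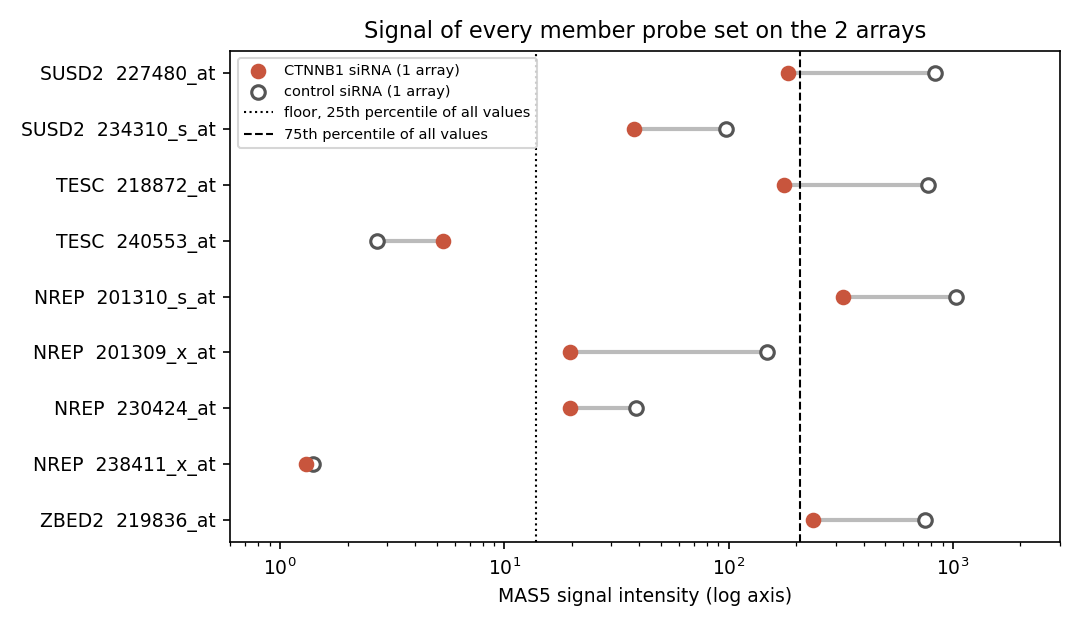
MAS5 signal intensity (log axis) of the 9 probe sets of SUSD2, TESC, NREP and ZBED2, with a filled point for the CTNNB1 siRNA array, an open point for the control siRNA array and vertical lines at the floor of 13.8 and the 75th percentile of 209. The 6 probe sets that entered all sit lower with CTNNB1 siRNA, and 2 of the other 3 lie under the floor on both arrays.

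All 4 genes were past a 2-fold difference, as the choice of genes fixes. Of 12531 entering genes 298, or 2.38%, were lower by 2-fold or more, and 287, or 2.29%, were higher by as much. The split of these calls depends on scaling, with 543 lower and 128 higher after scaling to a common trimmed mean, 448 and 163 after centring on the median ratio, and 183 and 472 after scaling to a common median. At 3-fold, 53 genes were lower, 0.423% of those entering. Among the 8197 genes whose higher signal reached 209 on at least 1 entering probe set, 11 were at least 3-fold lower, 0.134%.

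Counted by probe set, 6 of the 9 entered and all 6 were at least 2-fold lower, as were 656 of 27151 entering probe sets, 2.42%. Since the genes were chosen for low ratios, the count of 6 was largely set in advance. SUSD2 and NREP were the 2 genes of the 4 with more than 1 entering probe set, and each had both past 2-fold. Over all genes, 11 of 5791 with 2 or more entering probe sets had every one of them at least 2-fold lower, 0.19%. When 1 entering probe set of such a gene was at least 2-fold lower, the others were too in 11 of 227 genes, 4.85%. SUSD2 and NREP are among these 11, all of which had 2 entering probe sets. Both genes were chosen for low ratios, so their place among the 11 is a description.

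Over all entering genes the log2 ratio had a median of 0.15, so the array with CTNNB1 siRNA was slightly brighter over most entering genes. Relative to that median the log2 ratios were -2.33 for SUSD2, -2.29 for TESC, -1.82 for NREP and -1.82 for ZBED2. The median itself moved between -0.07 and 0.29 over the scalings tried, and with no filter it was 0.01 over 19775 genes.

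**Figure D2:**
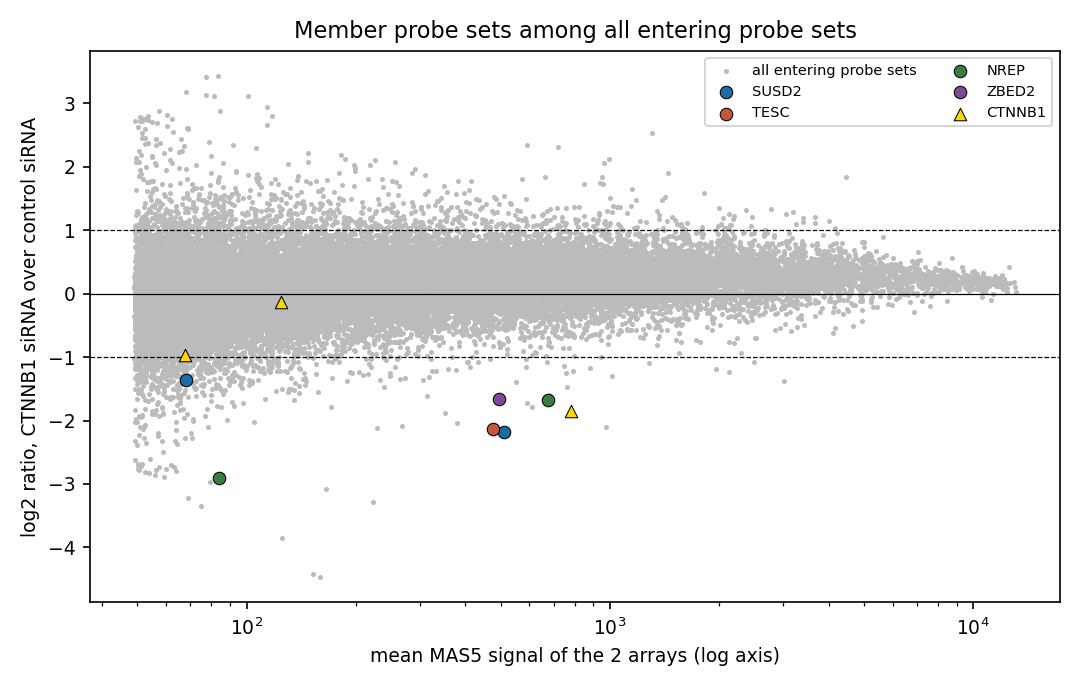
Log2 ratio of CTNNB1 siRNA over control siRNA against mean MAS5 signal (log axis) for the 27151 entering probe sets in grey, with the 6 entering probe sets of the 4 genes as coloured points, CTNNB1 as triangles and dashed lines at 2-fold. The brightest probe sets of the 4 genes lie between -2.18 and -1.67, in a signal range where few grey points pass 2-fold, while the dim SUSD2 probe set at -1.36 lies where many do.

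Dim probe sets scatter more than bright ones, so each probe set was set beside the 1000 entering probe sets nearest to it in mean signal. Around SUSD2 227480_at these had a median log2 ratio of 0.23 and an SD of 0.39, 3 of them were at least 2-fold lower, and none was as low as SUSD2. Around TESC 218872_at the median was 0.23 and 1 was as low, which was SUSD2. Around ZBED2 219836_at the median was 0.22 and 2 were as low, which were SUSD2 and TESC. The bright probe sets of these 3 genes are thus each other's neighbours in signal. In ratio only SUSD2 (-2.18) and TESC (-2.14) lie next to each other, while ZBED2 (-1.67) lies higher.

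None of the 1000 neighbours of NREP 201310_s_at was as low, the lowest being at -1.60. The same held for the dimmer NREP 201309_x_at, whose neighbours reached -1.78 at the lowest and had an SD of 0.63. SUSD2 234310_s_at was less apart, with 21 of 1000 neighbours, 2.1%, as low and 62 of them at least 2-fold lower. NREP 230424_at, set beside probe sets of any signal because it did not enter, was matched by neighbours as low in 22.9% of cases, and 227 of its 1000 neighbours were at least 2-fold lower. Since the genes were chosen for low ratios, these positions describe how far out they lie and support nothing further.

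**Figure D3:**
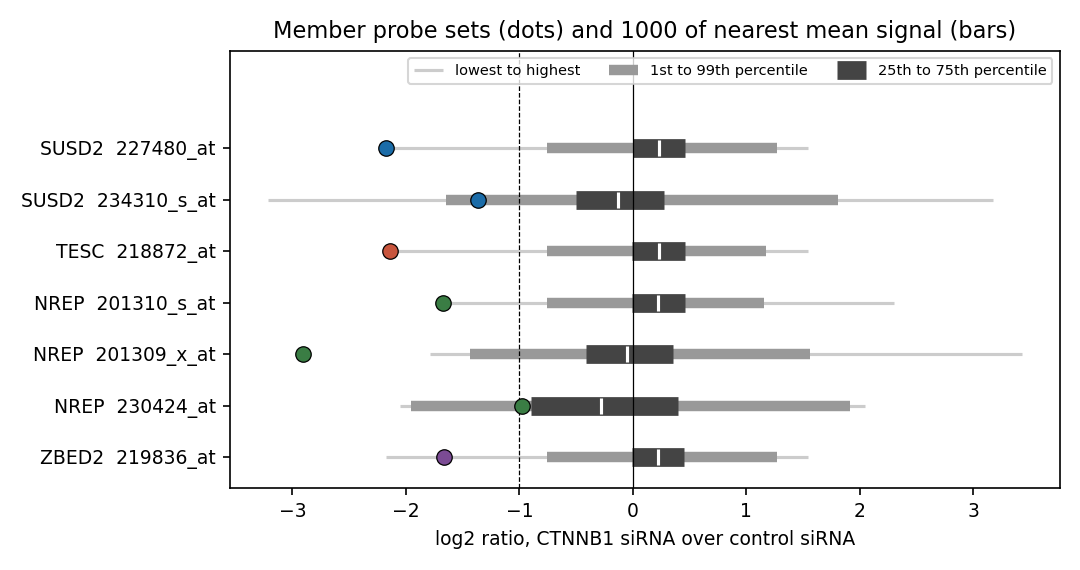
Log2 ratio of CTNNB1 siRNA over control siRNA for each probe set with a ratio (coloured dot) and for the 1000 probe sets of nearest mean signal, with a thin line from lowest to highest, a grey bar from the 1st to the 99th percentile, a dark bar from the 25th to the 75th and a white tick at the median. The bright probe sets of all 4 genes and NREP 201309_x_at lie below the 1st percentile of their neighbours, while SUSD2 234310_s_at and NREP 230424_at lie inside the grey bar.

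In the order of log2 ratios over all 12531 genes, SUSD2 was the 17th lowest, TESC the 18th, NREP the 43rd and ZBED2 the 44th. Genes of like ratio were sought among the 6038 genes whose entering probe sets all had 1 sign and whose higher signal reached 209. In that order SUSD2 stood between NKD1, a Dishevelled-binding Wnt inhibitor gene (-3.07), and TESC. TESC stood between SUSD2 and CTNNB1 itself (-1.85 on its brightest probe set, with -0.97 and -0.13 on the other 2). NREP stood between AXIN2, a scaffold gene of the beta-catenin destruction complex (-1.73), and ZBED2. ZBED2 stood between NREP and LGR6, an R-spondin receptor gene (-1.61). The likeness is in 1 log2 ratio from 2 arrays. Apart from NKD1, which lay 0.90 below SUSD2, the neighbours differed by 0.28 or less, within the probe set SD of bright probe sets.

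The families and partners of the 4 genes were read from lists chosen with earlier results of these data known. Among 16 genes related to SUSD2, mostly other sushi-domain genes, 8 entered, with 1 past 2-fold in each direction. The median of these 8 was 0.08, against 0.15 for all genes. SEZ6L, a neuronal membrane protein gene, read 13.4 with CTNNB1 siRNA, under the floor, against 85.3 with control siRNA, at least 6.18-fold lower on a dim _x_at probe set. A floor at the median of all values left a log2 ratio of -0.80.

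CSMD2, a large membrane protein gene, was 2.45-fold higher from a dim signal (70.9 with CTNNB1 siRNA, 28.9 with control siRNA), and its log2 ratio was 0.53 with the floor at the median. SUSD1 had a log2 ratio of 0.46. Galectin-1 (LGALS1), a reported SUSD2 partner, read 4155 with CTNNB1 siRNA and 3450 with control siRNA, a log2 ratio of 0.27. LGALS1 lies outside the rule for naming genes and was added after its value was seen.

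Of 20 genes with probe sets in the list of TESC relatives, sodium/proton exchangers and the calcineurin pathway, 13 entered with a median log2 ratio of 0.16. SLC9A5, a sodium/proton exchanger gene, was the only 1 past 2-fold, at 43 with CTNNB1 siRNA against 108 with control siRNA, and its other entering probe set had a log2 ratio of -0.26. RCAN1, a calcineurin inhibitor gene, had a log2 ratio of 0.89 on its brightest probe set and 0.14 on the other. PPP3CA, a calcineurin catalytic subunit gene, had 0.74. CHP1, a close relative of TESC, read 4619 with CTNNB1 siRNA and 3722 with control siRNA, a log2 ratio of 0.31. CHP1 was likewise named after its value was seen.

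Of 17 genes with probe sets in the TGF-beta list linked to NREP all 17 entered, with a median log2 ratio of 0.05. TAGLN, an actin-binding protein gene, was 3.67-fold lower (150 with CTNNB1 siRNA, 552 with control siRNA), but its 3 entering probe sets ranged from -3.28 to 0.38. The receptor gene TGFBR1 was 2.97-fold higher (566 with CTNNB1 siRNA, 190 with control siRNA). The signal transducer gene SMAD3 had a log2 ratio of 0.88 and ranged from 0.23 to 1.71 over its 4 entering probe sets. The ligand genes TGFB1, TGFB2 and TGFB3 had log2 ratios of 0.79, 0.38 and 0.05, and were also named after their values were seen. The 4 entering TGFB2 probe sets ranged from -0.05 to 0.85, and TGFB3 was dim (71.3 with CTNNB1 siRNA, 68.9 with control siRNA).

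The BED-type zinc finger relatives of ZBED2 had small differences. Of 5 with probe sets 4 entered and none passed 2-fold, beside 2.38% of all entering genes lower and 2.29% higher. Log2 ratios were 0.20 for ZBED5, -0.18 for ZBED3, -0.16 for ZBED1 and -0.10 for ZBED4, the last named after its value was seen. The sign of ZBED5 turned in 5 of 11 alternative settings. Of 17 interferon regulators and response genes with probe sets 16 entered, 0 were 2-fold lower and 1 was 2-fold higher, with a median of 0.22. That gene was the kinase gene JAK2 (134 with CTNNB1 siRNA, 60.8 with control siRNA, a log2 ratio of 1.14, which fell short of 2-fold in 2 of 10 alternative settings). GBP1, an interferon-induced GTPase gene, had -0.73 from a dim signal (37.9 with CTNNB1 siRNA, 62.7 with control siRNA). Its log2 ratio shrank to as little as -0.35 over 10 alternative settings. The transcription factor gene IRF9 had 0.71. IRF1, the factor that ZBED2 is reported to oppose, had -0.14 and was named after its value was seen.

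**Figure D4:**
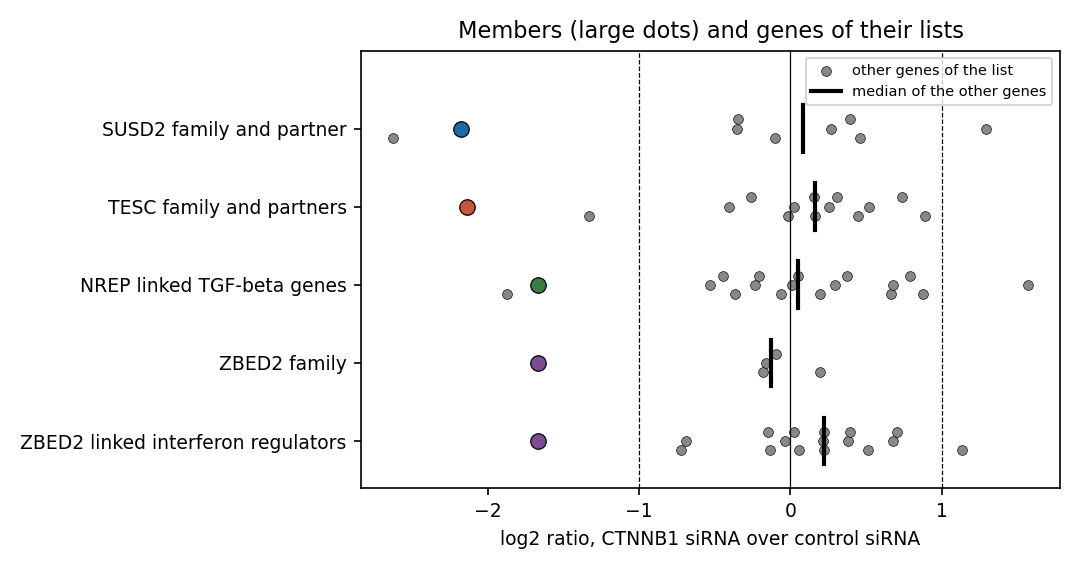
Log2 ratio of CTNNB1 siRNA over control siRNA for each of the 4 genes (large coloured dots) and the entering genes of its list (grey dots), with a bar at the median of the list without the gene and dashed lines at 2-fold. The list medians run from -0.13 to 0.22, while the 4 genes lie at -1.67 or lower. Since the 4 genes were chosen for low ratios on these arrays, this contrast was largely set in advance.

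Genes next to the 4 on the chromosome were read as a further comparison added after the 4 genes' values were seen. In RefSeq order the nearest protein-coding genes on either side of SUSD2 were CABIN1 (208 with CTNNB1 siRNA, 142.5 with control siRNA) and GGT5 (4.5 with CTNNB1 siRNA, 50.3 with control siRNA), and GGT5 was too dim to enter, with a log2 ratio of -1.87 against the floor. TESC lay between FBXW8, too dim to enter (-0.55), and FBXO21 (0.26), given as log2 ratios. NREP lay between STARD4 (-0.50) and EPB41L4A (-0.34). ZBED2 lies within the span of CD96, which was too dim to enter (30.9 with CTNNB1 siRNA, 26 with control siRNA), and between NECTIN3 (0.42) and PLCXD2 (0.39). Of the 6 such genes that entered 0 were 2-fold lower, beside 2.38% of all entering genes, a share at which 6 genes say little.

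All 4 genes were at least 2-fold lower in each of the 9 alternatives run, which partly follows from their choice for low ratios. The raised floor moved none of the 4, whose brightest probe sets read above it. The median over entering probe sets and the dimmest probe set could not move TESC or ZBED2, which have 1 entering probe set each. Log2 ratios ran from -2.39 to -1.36 for SUSD2, -2.35 to -2.00 for TESC, -2.91 to -1.53 for NREP and -1.88 to -1.53 for ZBED2. For SUSD2 and NREP the widest departures came from reading another probe set.

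**Figure D5:**
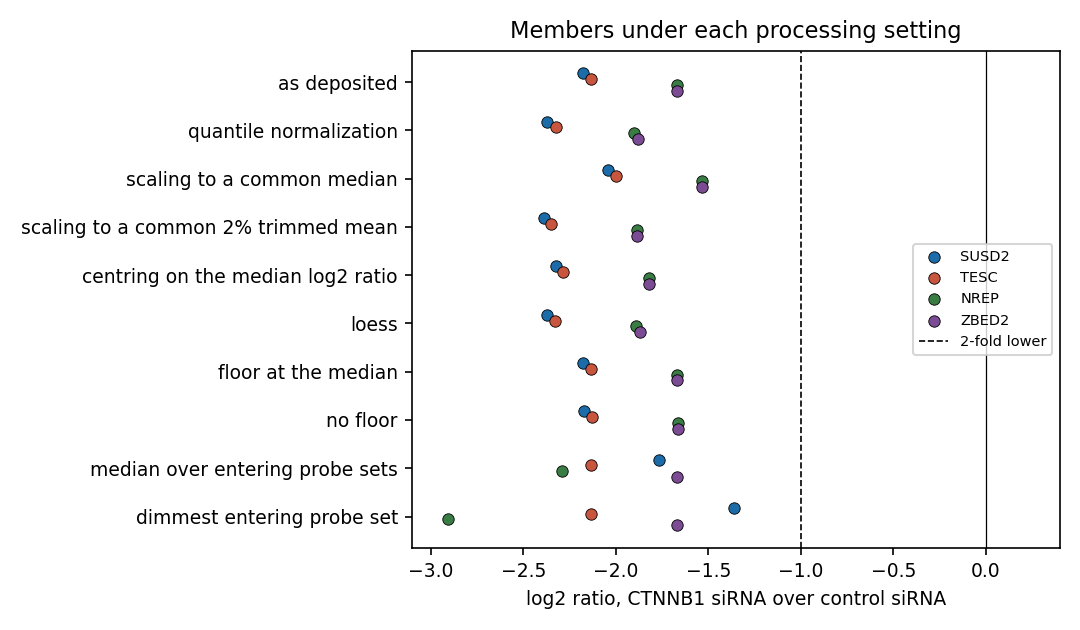
Log2 ratio of CTNNB1 siRNA over control siRNA for SUSD2, TESC, NREP and ZBED2 as deposited and in 9 alternative settings, with a dashed line at 2-fold lower. All points lie left of the dashed line, and the 5 other scalings move the 4 genes together while the choice of probe set moves SUSD2 and NREP apart.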

How the data were processed

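Expression was measured in 2 samples, 1 per group. The authors deposited linear signal intensities of 54675 probe sets per array, and the submitters' processing notes name MAS5. Its version, target intensity and scaling are not given in the sources, and detection calls were not used. GEO's platform annotation gave 41097 probe sets a single symbol and 1801 several. Symbols were updated through Entrez numbers to RefSeq, and the 4 genes kept their platform symbols. Log2 ratios (CTNNB1 siRNA over control siRNA) were computed from the deposited intensities with no further normalization, with the floor, filter and probe set choice given above, in Python 3.11.15 with pandas 2.3.3 and scipy 1.17.1. Calculations were tested on simulated data. Named were CTNNB1, the 4 genes, the genes directly next to each in log2 ratio, and of each list the genes past 2-fold and the 3 with the largest absolute ratio. The genes, lists and rules were chosen with earlier results of these data known. Alternatives were other scalings, floors, filters, probe sets and neighbourhood sizes. The number of arrays limits the precision. The floor is not a detection limit.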

Additional observations from a re-analysis of the deposited data

How the results depend on the processing

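No paired analysis was possible because each group has 1 array, and for the same reason no replicate could be left out. The ratios of TESC and ZBED2 moved by less than the probe set SD of 0.42 in the 5 other scalings and with no floor. The other 3 alternatives could not move them, since each has 1 entering probe set and signals above the raised floor. SUSD2 moved to -1.36 with its dimmest entering probe set, and NREP to -2.91 with its dimmest and -2.29 with the median over entering probe sets. The cause of these probe set differences was not tested. The count of genes at least 2-fold lower, 298 as deposited, was 183 with scaling to a common median, 543 with a common 2% trimmed mean, 448 with centring, 160 with the floor at the median, 34 over the 7913 genes left by a filter at the 75th percentile, and 1271 with no filter, where 19775 enter. It stayed between 255 and 283 after quantile normalization, loess, no floor and the median over probe sets. With 200 or 2000 neighbours the share as low as a bright probe set of the 4 genes was 0.15% or less. Dim signals limit the second SUSD2 probe set and all NREP probe sets but the brightest.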

Other observations

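Among genes with 2 or more entering probe sets, 9 besides SUSD2 and NREP had all of them at least 2-fold lower with CTNNB1 siRNA, each on 2 probe sets. NKD1 had log2 ratios of -3.07 and -4.41, the second against a signal of 10 with CTNNB1 siRNA that was set to the floor and so a bound, and the fatty acid transporter gene SLC27A2 had -1.60 and -1.39. The other 7 were dimmer and were named after their values were seen. BCL2L15, a BCL2 family gene, had -1.55 and -1.66, APLN, which encodes the peptide ligand apelin, had -1.25 and -1.37, and the hyaluronan synthase gene HAS2 had -1.06 and -1.53. RETREG1, a receptor gene for autophagy of the endoplasmic reticulum, had -1.10 and -1.21, CAPN6 had -1.13 and -1.01, THRSP had -1.05 and -1.05, and TMEM132B had -1.09 and -1.37. Dim probe sets scatter widely, with a pooled SD of 0.57 at a mean signal of 50 to 100, and no replicate is at hand.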
